A study of Mus musculus with 8 samples.

Results

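RNA-seq libraries of Ubn2-depleted ESCs were set directly against those of Ubn1-depleted ESCs, without the control cells taking part in the main test. These 4 libraries, 2 per depletion, were taken by their labels from a series of 8, which also holds 2 control and 2 Hira-depleted libraries. All groups are E14 cells, a feeder-free mouse ESC line kept on gelatin with serum and leukaemia inhibitory factor (LIF), that received 1000 ng of the pSuper puro vector. In the depleted groups that vector carries an shRNA against Ubn1 or Ubn2, and puromycin at 1 µg/ml was added 24 h after transfection and kept for 3 days. The labels call the control cells wild type and give them the same vector and puromycin, while the study's methods name a luciferase shRNA as its control. The dose and timing of puromycin given here are those of the labels, and the study's methods give a lower dose and a start that can be earlier. Depletion was transient, in pools of transfected cells and not in a clone, and the shRNA used for each library is not given in the sources used here. Nothing says that the 2 libraries of a group came from separate cultures, so p-values measure the spread between these libraries, which may be technical.

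Ubn1 and Ubn2, the ubinucleins, are paralogs that bind the histone chaperone HIRA. With HIRA and CABIN1 they form a complex that takes the histone variant H3.3 from ASF1A and places it on chromatin outside of DNA replication. In ESCs the complex is known for H3.3 at active genes, regulatory elements and retrotransposons. The question of the comparison is where the transcriptome depends on which ubinuclein is depleted.

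Library totals on genes were 21940700 and 26789683 counts after Ubn1 depletion, against 21755772 and 19710040 after Ubn2 depletion. Levels are given as CPM, read counts scaled to library size with TMM factors, replicate 1 before replicate 2, and a log2 fold change is Ubn2 depletion over Ubn1 depletion. Of 55418 genes listed, 18250 had enough counts in the 4 libraries to be tested, and their median log2 fold change was -0.01. A gene was called when edgeR's quasi-likelihood test gave an adjusted p under 0.05 and the fold exceeded 1.5. An exact permutation test of 2 against 2 libraries cannot give a two-sided p below 0.333.

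The depleted genes separated the groups as labelled. Ubn1 lies on chromosome 16 of GRCm38 from 5050057 to 5086289. It had 23.7 and 23.8 CPM after Ubn1 depletion, 42.5 and 40.01 after Ubn2 depletion, and 53.01 and 44.6 in control cells. Ubn2 lies on chromosome 6 from 38433950 to 38524825. It had 56.8 and 51.2 CPM after Ubn1 depletion, 29.9 and 24.4 after Ubn2 depletion, and 50.1 and 52.3 in control cells. Each paralog was therefore lowest in its own depletion, with no overlap between the depletions. The log2 fold change was 0.79 for Ubn1 (standard error 0.11, adjusted p = 3.8e-05) and -0.99 for Ubn2 (standard error 0.12, adjusted p = 5.93e-06). The RNA left of the target was 23.8 ± 0.0733 CPM of Ubn1 and 27.2 ± 3.93 CPM of Ubn2 (SD, n = 2 each), to be read against each gene's own control level. Protein was not measured in these data, and the study reports its depletion by western blot.

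The other 17 of 19 tested genes of the HIRA complex and of H3.3 and its chaperones were not called. Hira itself had 105 and 118 CPM after Ubn1 depletion, against 108 and 104 after Ubn2 depletion, and Cabin1 had 131 and 144 against 133.5 and 122, so the libraries overlapped. Asf1a, which hands histones to the complex, had 39.8 and 31.2 CPM against 46.3 and 47.0 (log2 fold change 0.40, adjusted p = 0.0211). The H3.3 genes H3f3a and H3f3b had log2 fold changes of 0.29 and 0.34 with adjusted p = 0.0435 and 0.0275. For these 3 genes both Ubn2-depleted libraries lay above both Ubn1-depleted ones, by less than 1.5-fold. Daxx and Atrx, whose products form the other main H3.3 chaperone, had log2 fold changes of 0.37 and -0.11.

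**Figure D1:**
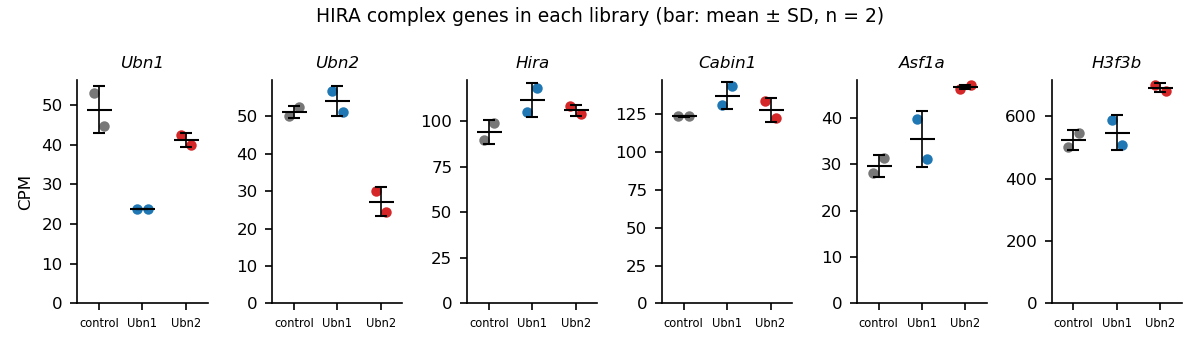
CPM of 6 genes of the HIRA complex and H3.3 in the control, Ubn1-depleted and Ubn2-depleted libraries, with 1 point per library and the mean ± SD (n = 2). Ubn1 is lowest after its own depletion and Ubn2 after its own, while Hira and Cabin1 overlap between the depletions.

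Of the 18250 genes tested, 1616 (8.85%) were called between the depletions. After Ubn2 depletion 833 genes (4.56%) were higher and 783 genes (4.29%) were lower than after Ubn1 depletion. Counts of called list members given below are to be read against these shares. In 1609 of the called genes both Ubn2-depleted libraries lay on the same side of both Ubn1-depleted ones, as they did in 10640 of all genes tested. DESeq2's Wald test called 547 genes higher and 483 lower. Leaving out the second Ubn1-depleted library reduced the lower genes to 553 and left 788 higher ones.

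**Figure D2:**
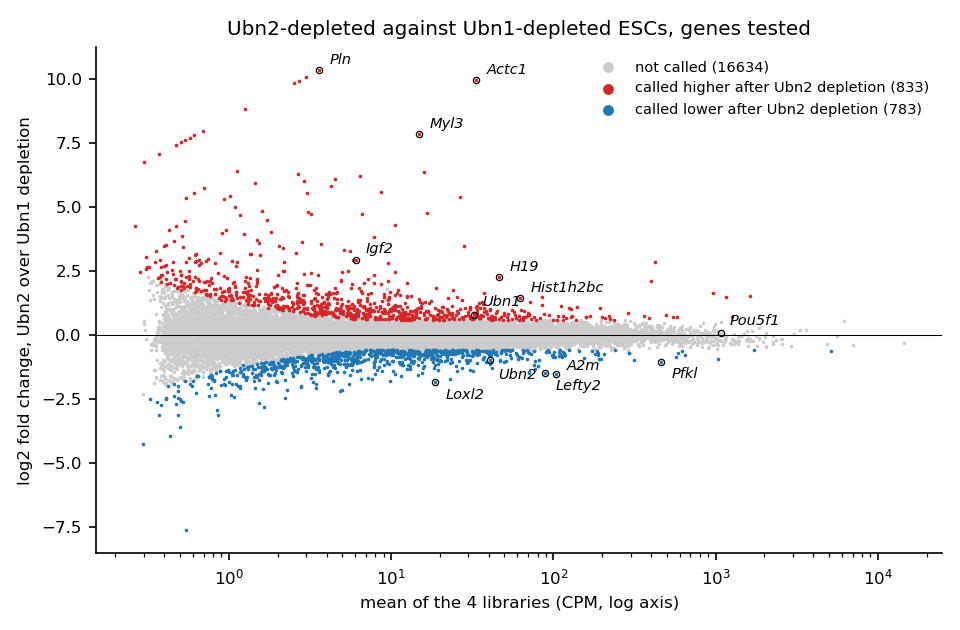
Log2 fold change of Ubn2 over Ubn1 depletion for each gene tested, against its mean CPM over the 4 libraries on a log axis. Red points are the 833 genes called higher, blue points the 783 called lower, grey points the rest, and the named genes are circled. For genes without counts after Ubn1 depletion, such as Pln, the plotted value depends on the fit's prior count.

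The control libraries give the level from which each depletion departed. For 1460 of the 1616 called genes (90.3%), the control mean lay nearer to the Ubn1-depleted mean on the log2 CPM scale, against 12726 of all genes tested (69.7%). The share was 91.4% of the higher genes and 89.3% of the lower ones. The control mean lay between the depletions for 702 called genes, beyond the Ubn1-depleted mean for 885 and beyond the Ubn2-depleted mean for 22. Of the called genes, 163 had both Ubn1-depleted libraries above and both Ubn2-depleted libraries below both controls, and 159 had the reverse.

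Of 21 tested members of the core pluripotency list 1 was called, a share near that of all genes tested. It was Lin28a, an RNA-binding protein that blocks let-7 maturation, with 130 and 122 CPM after Ubn1 depletion, against 72.0 and 73.3 after Ubn2 depletion (log2 fold change -0.79, adjusted p = 3.23e-06). Smaller differences were frequent on this list. edgeR gave 11 of the 21 members an adjusted p under 0.05, against 3112 of all 18250 genes tested, and all but Lin28a stayed within 1.5-fold. Of the 21, 15 had a positive log2 fold change, and the median was 0.17. Pou5f1, which encodes OCT4, had 1078 and 1032 CPM against 1090 and 1133, with a log2 fold change of 0.07. Sox2, Nanog, Esrrb and Zfp42 had log2 fold changes between -0.09 and 0.13 and were not called. All of these markers of the labelled cell type were abundant in the 4 libraries.

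Among 21 tested genes of the naive state, 4 were called, in both directions. The share was 9.52% each way, against 4.56% higher and 4.29% lower over all genes tested. Klf4, a reprogramming factor of the naive network, was lower after Ubn2 depletion, with 223 and 229 CPM against 129 and 143 (log2 fold change -0.73, adjusted p = 1.49e-05). Tcl1, a cofactor of the kinase AKT, was lower too, by a log2 fold change of -0.80. Nr0b1, a nuclear receptor of the pluripotency network, was higher with 120 and 122 against 198 and 192 CPM (log2 fold change 0.69), and Fgfbp1, a carrier of FGFs, had 3.10 and 3.42 against 19.06 and 16.8 CPM (log2 fold change 2.46).

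Many genes of glycolysis were called lower after Ubn2 depletion than after Ubn1 depletion. Glycolysis splits glucose into pyruvate, and ESCs in serum and LIF run it at a high rate. Of 26 tested genes of the pathway 24 had a negative log2 fold change, 13 were called lower and 2 higher, and the median was -0.57. Together the 26 genes held 29130 and 34466 CPM after Ubn1 depletion, 21519 and 22788 CPM after Ubn2 depletion, and 34724 and 36454 CPM in control cells. The summed levels did not overlap between the depletions.

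Genes called lower lay at early and late steps of the pathway, though not at every step. Hk1, hexokinase, which traps glucose in the cell, had a log2 fold change of -0.86. Pfkl, the liver form of phosphofructokinase and so of the committed step, had 540 and 703 CPM after Ubn1 depletion against 296 and 308 after Ubn2 depletion (log2 fold change -1.04, standard error 0.11, adjusted p = 3.14e-06). Aldoc, an aldolase that cleaves the 6-carbon sugar, had 32.7 and 41.8 against 13.1 and 14.7 CPM (log2 fold change -1.42, standard error 0.14, adjusted p = 5.93e-07). Both genes were lower in each Ubn2-depleted library than in either Ubn1-depleted one.

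Further down the pathway Pgk1, phosphoglycerate kinase, which makes ATP, had 1262 and 1453 CPM against 653 and 749, with a log2 fold change of -0.95. Ldha, the lactate dehydrogenase that turns pyruvate to lactate, had 1935 and 2237 against 1342 and 1417 CPM (log2 fold change -0.60, adjusted p = 0.000481). Slc16a3, which exports lactate, had 186 and 213 against 106 and 109 CPM (log2 fold change -0.89, adjusted p = 1.57e-06). Pgm1, a phosphoglucomutase that links glycogen to glycolysis and is on none of the lists, had 99.2 and 122 against 39.3 and 49.1 CPM (log2 fold change -1.33, adjusted p = 1.7e-07).

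Some members stood apart. Gapdh, which took the most reads of these genes, had 7298 and 8849 CPM against 5855 and 6277, and its log2 fold change of -0.41 stayed under 1.5-fold (adjusted p = 0.0103). Slc2a1, the glucose transporter GLUT1, had 1087 and 1322 against 782 and 863 CPM, with a log2 fold change of -0.55. The 2 genes called higher, Eno3 and Pgam2, encode the muscle forms of enolase and phosphoglycerate mutase. Eno3 had 13.7 and 15.0 against 29.9 and 24.0 CPM, and Pgam2 had 3.37 and 3.92 against 7.49 and 6.78. The second Ubn1-depleted library held more glycolytic RNA than the first, and without it 9 genes were called lower and the median was -0.40. Ldha then had a log2 fold change of -0.49 and was not called, as was the case without the first Ubn2-depleted library, at -0.56.

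Many targets of hypoxia-inducible factors (HIFs) were called lower as well. HIFs are transcription factors that are degraded in the presence of oxygen by VHL and the prolyl hydroxylases and that activate glycolysis, angiogenesis and mitophagy genes when oxygen is scarce. Of 49 tested targets 21 were called lower and 2 higher, 40 had a negative log2 fold change, and the median was -0.60. Of the lower targets, Aldoc, Ldha, Pgk1 and Pfkfb3 are also on the glycolysis list, so the lists are not independent. Bnip3, a mitophagy receptor, had 109 and 116 CPM after Ubn1 depletion, 44.7 and 51.7 after Ubn2 depletion, and 181 and 211 in control cells (log2 fold change -1.23, adjusted p = 5.4e-08).

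Loxl2, an oxidase that cross-links collagen, had 26.5 and 31.7 CPM against 7.63 and 8.60 (log2 fold change -1.85, adjusted p = 5.33e-08). Ndrg1, a stress-response gene, had 35.9 and 41.7 against 15.0 and 16.5 CPM (log2 fold change -1.30, adjusted p = 5.36e-07). Vegfa, the angiogenic growth factor, had 50.8 and 60.6 against 22.5 and 27.9 CPM (log2 fold change -1.15, adjusted p = 2.04e-06). In each of these genes the Ubn2-depleted libraries were both below the Ubn1-depleted ones, and for Bnip3, Ndrg1 and Vegfa the Ubn1-depleted libraries were in turn both below the controls.

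Regulators of HIF went both ways. Egln1 and Egln3, prolyl hydroxylases that are HIF targets themselves, were among the members called lower, with log2 fold changes of -0.76 and -0.73. Hif1a, the oxygen-regulated subunit, had 103 and 86.7 CPM against 123.3 and 102 (log2 fold change 0.25, adjusted p = 0.107), and Vhl had a log2 fold change of -0.37. Epas1, which encodes HIF2A, was one of the 2 members called higher, with 61.2 and 54.3 against 96.3 and 79.3 CPM (log2 fold change 0.61, adjusted p = 0.000406). The other was Cited2, a coactivator-binding inhibitor of HIF, with 43.7 and 40.01 against 63.9 and 62.5 CPM. Neither call held without the second Ubn1-depleted library, where Epas1 had 0.52 and Cited2 0.53, or without the first Ubn2-depleted one, at 0.46 and 0.58.

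HIFs bind a core of ACGTG or GCGTG, and the promoters of 3 of these genes are shown as examples that hold it. Not all do, and of the 2 starts of Vegfa the upstream one had 0 cores and the other 2. RefSeq promoters of GRCm38.p6 run from 250 bases before to 50 bases after a gene's start. The core, on either strand, is in capitals, and of the 2 starts of Aldoc in the table the upstream one is shown.
Bnip3, chr7:138909457-138909756, minus strand: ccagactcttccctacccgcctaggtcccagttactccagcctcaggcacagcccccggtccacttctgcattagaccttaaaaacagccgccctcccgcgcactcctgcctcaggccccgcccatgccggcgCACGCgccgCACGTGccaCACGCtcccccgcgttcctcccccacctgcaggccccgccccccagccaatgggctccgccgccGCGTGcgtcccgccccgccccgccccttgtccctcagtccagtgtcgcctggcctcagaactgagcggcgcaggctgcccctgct
Pgk1, chrX:106186850-106187149, plus strand: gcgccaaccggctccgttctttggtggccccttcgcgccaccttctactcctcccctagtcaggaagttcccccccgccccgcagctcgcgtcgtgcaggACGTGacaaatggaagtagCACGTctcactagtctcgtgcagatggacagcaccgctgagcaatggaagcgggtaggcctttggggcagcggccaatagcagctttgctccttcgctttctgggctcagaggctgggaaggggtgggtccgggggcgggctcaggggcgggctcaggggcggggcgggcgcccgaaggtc
Aldoc, chr11:78322823-78323122, plus strand: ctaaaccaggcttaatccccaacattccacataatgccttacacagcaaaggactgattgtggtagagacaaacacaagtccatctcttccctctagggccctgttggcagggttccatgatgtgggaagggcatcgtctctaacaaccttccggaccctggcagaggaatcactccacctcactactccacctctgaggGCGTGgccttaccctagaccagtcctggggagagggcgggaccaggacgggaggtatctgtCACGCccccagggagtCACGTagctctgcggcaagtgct

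The Bnip3 promoter held the core 5 times, that of Pgk1 2 times and that of Aldoc 3 times, where the palindrome CACGTG counts on each strand. Of the tested HIF targets with a promoter in the table, 38 of 41 (92.7%) held at least 1 core, as did 15 of the 16 called lower. The share was 46.7% of all 27025 genes with a promoter, 65.3% of those tested, 61.4% of those called lower and 50.3% of those called higher. A match describes letters in this window and not binding.

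**Figure D3:**
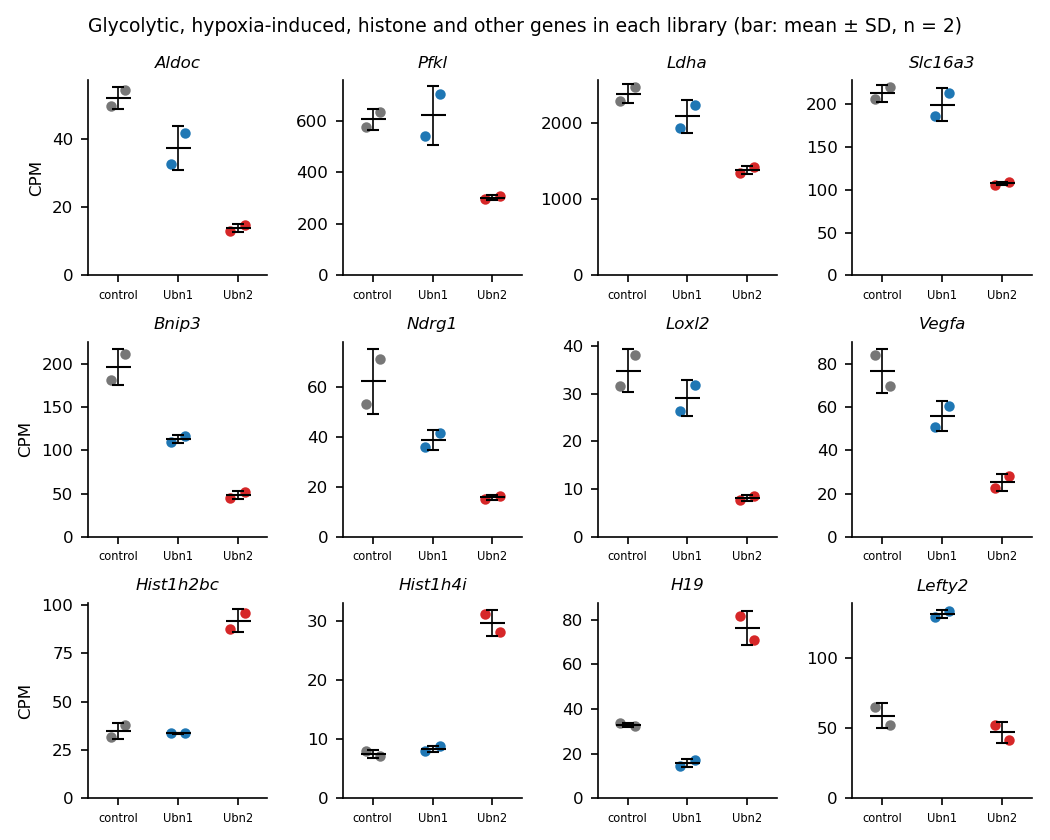
CPM per library of glycolytic genes and HIF targets, of histone genes, and of H19 and Lefty2, in control, Ubn1-depleted and Ubn2-depleted cells, with the mean ± SD (n = 2). The glycolytic genes and HIF targets are lowest after Ubn2 depletion, the histone genes and H19 are highest there, and Lefty2 is highest after Ubn1 depletion.

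Many histone genes of the replication-dependent clusters were called higher after Ubn2 depletion. Their mRNAs normally end in a stem-loop and lack a poly(A) tail, and they are made in S phase. Of 69 such genes 40 had enough counts to be tested, 29 of them were called higher and the other 11 were not called. The median log2 fold change was 1.70. Summed over all 69 genes the level was 93.5 and 83.0 CPM after Ubn1 depletion, 267 and 263 CPM after Ubn2 depletion, and 92.0 and 105 CPM in control cells. The Ubn1-depleted libraries overlapped the controls, and both Ubn2-depleted ones lay above all 4.

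Hist1h2bc, an H2B gene, rose from 33.7 and 33.5 CPM to 87.4 and 95.8 (log2 fold change 1.45, adjusted p = 5.28e-09). Hist1h4i, an H4 gene, had 8.06 and 8.80 CPM after Ubn1 depletion against 31.2 and 28.1 (log2 fold change 1.81, adjusted p = 3.03e-08). Hist3h2a, an H2A gene, had 2.505 and 2.61 against 13.8 and 12.3 CPM (log2 fold change 2.35, adjusted p = 1.23e-07). Called genes came from the clusters on chromosomes 13, 3 and 11 and included linker and core histones. Most clustered histones were at low levels in these libraries, and near-identical copies can share reads, so single members are uncertain.

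With at least 10 counts asked of each library, 17 of these genes remained and 14 of them were called higher, with a median of 1.45. DESeq2's Wald test called 16. Without the second Ubn1-depleted library the count was 19, and without the first or second Ubn2-depleted library it was 17 or 18. Slbp, whose product binds the stem-loop, had 133 and 120 CPM against 114 and 114 (log2 fold change -0.14). H2afx, a histone variant gene whose mRNA is made in both forms, had 265 and 277 CPM after Ubn1 depletion, 447 and 465 after Ubn2 depletion and 327 and 420 in control cells (log2 fold change 0.75, adjusted p = 1.57e-05).

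The stem-loop that marks such mRNAs is shown for 4 of the genes in whose annotated transcripts it was found. The sequences are from GENCODE M21 transcripts of GRCm38, with the stem-loop in capitals between 5 bases on each side.
Hist1h4i, chr13:22040961-22040986, minus strand: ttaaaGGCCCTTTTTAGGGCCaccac
Hist1h3c, chr13:23745042-23745067, minus strand: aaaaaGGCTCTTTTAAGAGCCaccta
Hist2h2aa2, chr3:96239779-96239804, minus strand: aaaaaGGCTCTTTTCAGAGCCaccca
Hist3h2a, chr11:58955167-58955192, plus strand: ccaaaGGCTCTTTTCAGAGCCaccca

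A stem of 6 bases that begins with GG, a loop of 4 bases that begins with TTT and the inverted repeat of the stem were found in the transcripts of 24 of the 40 tested histone genes and of 27 of 18206 other tested genes (0.148%). It was present in 18 of the 29 called histone genes and in 6 of the 11 that were not called. Hist1h2bc was among the called genes in which it was not found. The form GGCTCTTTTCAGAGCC occurred in 16 genes. Of the 4 genes shown, Hist1h3c and Hist2h2aa2 were low, and DESeq2's test did not call them. The annotated transcript ran on for 1643 bases past the stem-loop in Hist3h2a and for 35 bases in Hist2h2aa2.

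Other RNA without a long poly(A) tail, or of short length, moved to different extents. The 37 mitochondrially encoded genes summed to 11499 and 8455 CPM after Ubn1 depletion, against 14382 and 14098 after Ubn2 depletion, and 9 of 31 tested were called higher with a median log2 fold change of 0.56. The ribosomal RNA gene mt-Rnr2 had 98.7 and 63.3 against 176 and 158 CPM, and mt-Nd1 had 1144 and 765 against 1636 and 1495. That result rested on the second Ubn1-depleted library, without which 1 gene was called and the median was 0.28, while without the first 21 were called. DESeq2's Wald test called 1. Of 86 tested small nucleolar and Cajal body RNAs 1 was called, and their median was 0.10. Of the 3646 tested genes with the shortest exonic length 211 were called higher and 98 lower, against 135 and 192 of the 3642 with the longest. The part of any of these in the histone result was not tested.

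**Figure D4:**
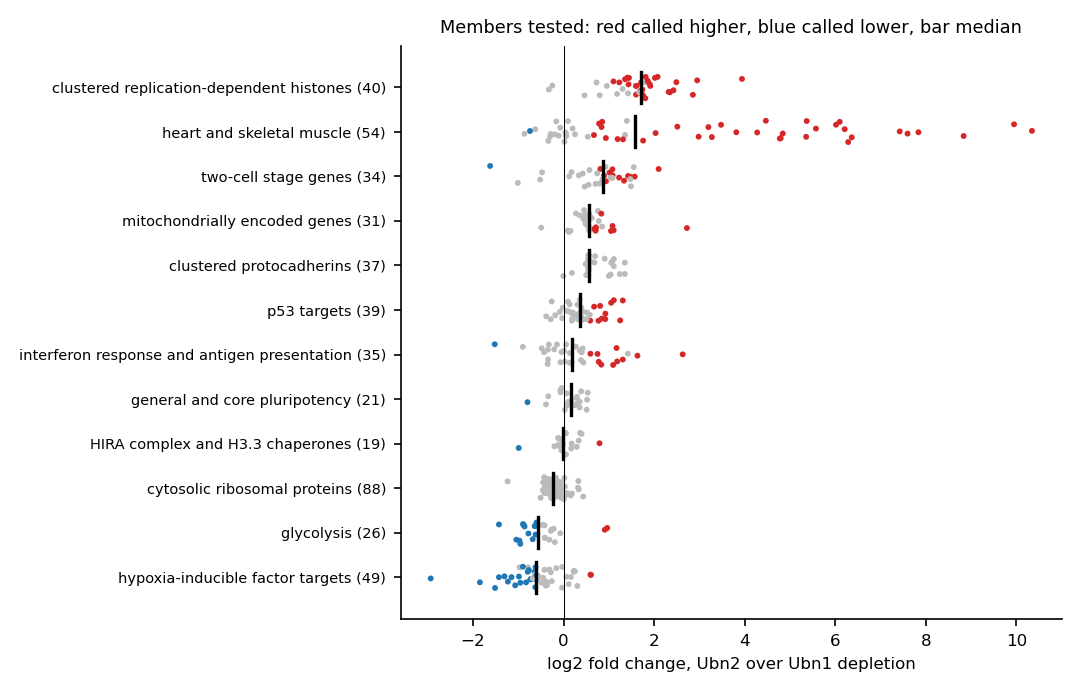
Log2 fold change of Ubn2 over Ubn1 depletion for each tested member of 12 gene lists, 1 point per gene, with the number tested in brackets and the median as a bar. Clustered histones and muscle genes lie mostly to the right of 0 and glycolysis and HIF targets mostly to the left. Core pluripotency and HIRA complex genes lie nearer to 0, with medians of 0.17 and -0.01.

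Genes of contractile muscle made up most of the 10 highest fold changes among called genes of 1 CPM or more with an established symbol. Of 74 genes on the heart and skeletal muscle list 54 were tested, 34 were called higher after Ubn2 depletion and 1, Fabp3, lower, with a median log2 fold change of 1.58, which stayed at 1.58 with genes at 0 set to their bound. A gene that is near 0 in one group can pass the filter only through the other, so this median and count describe the members that passed. With at least 10 counts asked of each library 33 genes remained, of which 15 were called higher and 1 lower, with a median of 0.25. The call of Fabp3 was lost without the second Ubn1-depleted library. Summed over the whole list the level was 563 and 688 CPM after Ubn1 depletion, 1072 and 859 after Ubn2 depletion, and 637 and 601 in control cells. The 34 genes called higher, chosen here by their call, summed to 85.2 and 84.8 CPM after Ubn1 depletion, 651 and 425 after Ubn2 depletion, and 72.2 and 77.3 in control cells.

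Actc1, cardiac actin, had 1 and 2 counts after Ubn1 depletion, against 1856 and 975 counts after Ubn2 depletion, or 84.8 and 49.3 CPM, a ratio of 1087 with a counting interval from 372 to 5274 (exact, 95%, covering counting error only). Myl3, a ventricular myosin light chain, had 3 and 3 counts against 811 and 445, a ratio of 241 with an interval from 110 to 658. Pln, phospholamban, which regulates the calcium pump of heart muscle, had no count after Ubn1 depletion, against 196 and 108 counts after Ubn2 depletion, at least 57.2-fold higher against a floor of 3 counts per library. Each was near 0 in the Ubn1-depleted and control libraries alike.

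Tnnt2, cardiac troponin T, had 0.455 and 0.307 CPM against 38.7 and 23.9 (log2 fold change 6.36, standard error 0.29, adjusted p = 2.13e-11). Myh7, a slow myosin heavy chain, had 0.956 and 1.5 against 61.5 and 41.8 CPM (log2 fold change 5.37, adjusted p = 4.23e-12), and the neighbouring and closely related Myh6 had 3.83 and 5.38 against 62.7 and 40.7 CPM. Mb, the oxygen-storing myoglobin, had 0.182 and 0.154 against 16.1 and 9.31 CPM, and Nppa, a natriuretic peptide, 0.273 and 0.154 against 7.22 and 4.65 CPM. Among the other genes with the 10 highest fold changes at 1 CPM or more were Myoz2, a sarcomere protein that was at least 20.1-fold higher, Cox6a2, a muscle subunit of cytochrome oxidase, and Acta2, smooth muscle actin. Tbc1d21, a testis gene with 0 and 0.0384 against 2.38 and 2.07 CPM, was the one member of that group outside of muscle and connective tissue.

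Regulators of muscle identity were scarce. Nkx2-5, a cardiac transcription factor, had 0.137 and 0.154 CPM against 1.10 and 0.607, a call that DESeq2's Wald test did not make (adjusted p = 0.102) and that was lost without any library but the second Ubn2-depleted one. Gata4 had 2.23 and 2.46 against 4.16 and 3.95 CPM (adjusted p = 0.0426), a call that was lost in DESeq2's test and with each library left out. Tbx5 lay between 0.0506 and 0.115 CPM in the 4 libraries, Myog between 0.0457 and 0.182, and Myod1 had no count after Ubn2 depletion. Hand2 had no count after Ubn1 depletion, against 0.503 and 0.455 CPM after Ubn2 depletion, which is at least 3.80-fold higher.

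Markers of other tissues differed in whether they went with the muscle genes. Hbb-bs, a globin of red cells, had 1 and 1 counts after Ubn1 depletion, against 75 and 45 after Ubn2 depletion, a ratio of 69.1 with a counting interval from 18.7 to 577.2. Hba-a1, its partner in haemoglobin, had 0 and 2 counts against 57 and 21. Both globins have near-identical copies that can share reads. On the whole erythroid list 2 of 8 tested genes were called higher and Epor lower, and the list summed to 9.70 and 9.92 CPM against 14.7 and 10.2. As with the muscle genes, a member near 0 after Ubn1 depletion can pass the filter only through the Ubn2-depleted libraries. With at least 10 counts asked of each library 4 erythroid genes remained, of which 0 were called higher and 1 lower. Col3a1, a fibrillar collagen of connective tissue, had no count after Ubn1 depletion or in controls and 6.72 and 4.10 CPM after Ubn2 depletion, at least 42.9-fold higher. Of 15 tested fibroblast genes 4 were called higher and 2 lower, with sums of 313 and 368 against 330 and 313 CPM. The filter limits this count too, and with at least 10 counts in each library 1 of 10 was called higher and 2 lower. Of 12 endothelial genes 4 were higher, among them Kdr, a VEGF receptor, with 2.19 and 1.42 against 9.32 and 6.63 CPM, and 1 was lower. Their list summed to 181 and 202 against 185 and 184 CPM. Of 17 macrophage and leukocyte genes 6 were tested and 2, Laptm5 and Cd68, were called higher. The list summed to 183 and 197 against 317 and 318 CPM. Most of that was Laptm5 and Cd68 themselves, with 166 and 179 against 294 and 294 CPM. In controls these 2 genes held 112 and 110 CPM. Of 5 hepatocyte and visceral endoderm genes edgeR gave 1 an unadjusted p under 0.05 and none was called, nor by DESeq2, and their median log2 fold change was -0.35.

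Within the Ubn2-depleted group the first library held more of this RNA than the second. The ratio of the first to the second had a median of 1.55 over the 32 called muscle genes that averaged at least 1 CPM after Ubn2 depletion, and it was above 1 in 31 of them. Over all 15917 tested genes averaging 1 CPM or more in the 4 libraries the median ratio was 1.00, with 90% of genes between 0.728 and 1.35. Without any gene of the muscle, erythroid, fibroblast, endothelial and leukocyte lists 783 genes were called higher and 778 lower of 18137. In bulk libraries a few cells with much of an RNA and many cells with little of it cannot be told apart, and whether the muscle RNA came from the cultures was not tested.

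**Figure D5:**
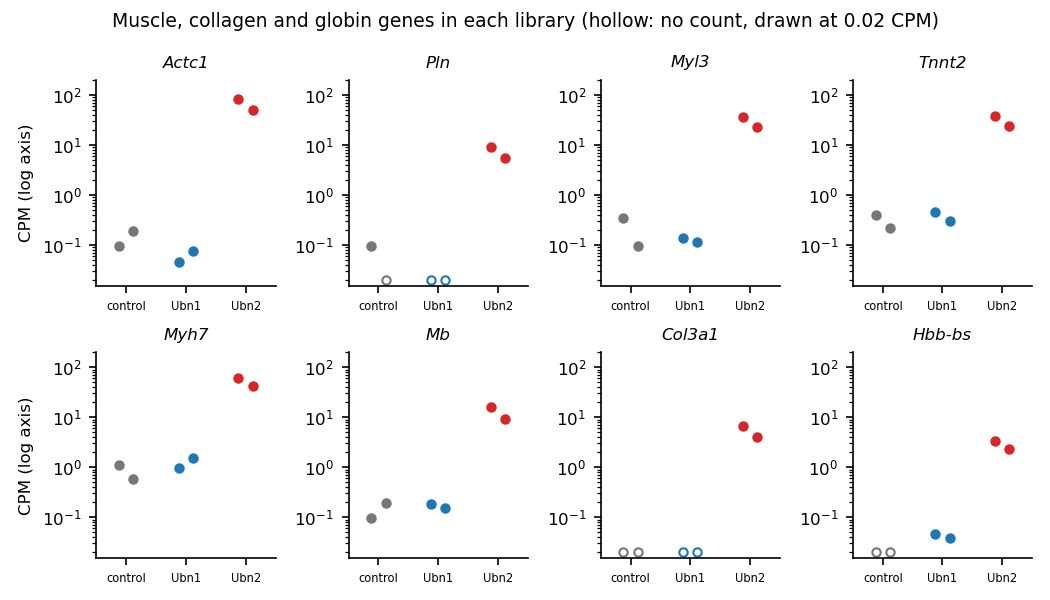
CPM per library, on a log axis, of 6 muscle genes, the collagen gene Col3a1 and the globin gene Hbb-bs, with hollow points for libraries without a count. The control and Ubn1-depleted libraries lie at or below 1.5 CPM and the 2 Ubn2-depleted libraries between 2.28 and 84.8 CPM.

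Genes of the 2-cell embryo, which a small fraction of ESCs express, included members called higher after Ubn2 depletion. Of 34 tested genes of the list 13 were called higher and 1 lower, with a median log2 fold change of 0.88. The list summed to 105 and 100 CPM after Ubn1 depletion, 146 and 179 after Ubn2 depletion, and 69.4 and 61.1 in control cells. Both depletions thus lay above the controls, Ubn2 depletion by more. Zscan4c, of a family of telomere-linked zinc finger genes, had 4.14 and 4.54 against 6.67 and 11.8 CPM (log2 fold change 1.08, adjusted p = 0.00355), where controls had 1.80 and 1.34. Zscan4d and Zscan4f had log2 fold changes of 0.85 and 0.94, and Usp17le, a deubiquitinase of a repeated family, of 1.57.

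These families have near-identical copies, so reads can be split between members. Without the second Ubn2-depleted library, where the list was highest, 4 genes were called higher and the median was 0.66. Zscan4c, Zscan4d, Zscan4f and Usp17le were then not called, at 0.62, 0.72, 0.66 and 0.92. The gene called lower, Zscan5b, had 0.865 and 1.08 against 0.229 and 0.405 CPM (adjusted p = 0.049) and was not called by DESeq2 or with any library left out.

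Germline genes went both ways. Of 46 tested, 10 were called higher (21.7%) and 3 lower (6.52%), against 4.56% and 4.29% of all genes tested. The median log2 fold change was 0.25. Tex19.1, which restrains retrotransposons in germ cells and ESCs, had 84.7 and 85.9 CPM after Ubn1 depletion, 176 and 170 after Ubn2 depletion and 52.9 and 45.1 in controls (log2 fold change 1.02, adjusted p = 1.08e-07). Piwil2, of the piRNA pathway, had 23.04 and 20.6 against 37.3 and 37.7 CPM. Stra8, which licenses meiosis, had 14.4 and 16.8 against 3.84 and 7.13 CPM (log2 fold change -1.52, adjusted p = 5.95e-05).

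Some targets of p53, the stress-activated tumour suppressor, were called higher after Ubn2 depletion. Of 39 tested 11 were called higher (28.2%, against 4.56% of all genes tested) and the other 28 were not called. The median log2 fold change was 0.36, and 0.36 to 0.39 with each library left out. Cdkn1a, the cell cycle inhibitor p21, had 65.1 and 75.2 CPM against 151 and 152 (log2 fold change 1.11, adjusted p = 1.04e-07). Perp, a desmosomal and apoptotic target, had 20.2 and 20.9 against 50.9 and 47.1 CPM (log2 fold change 1.25, adjusted p = 1.64e-07). Gadd45a, a DNA damage gene that is not on this list but on that of DNA methylation and demethylation, had 34.2 and 41.5 against 76.6 and 71.2 CPM (log2 fold change 0.96).

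Controls had 65.4 and 64.6 CPM of Cdkn1a, near the Ubn1-depleted level, and 13.7 and 12.04 CPM of Perp, below both depletions. Trp53 itself had 322 and 319 against 411 and 411 CPM, with a log2 fold change of 0.36 that stayed under 1.5-fold. Mdm2, the ligase that degrades p53, had 115 and 104 against 166 and 164 CPM (log2 fold change 0.59), and it was not called without the second Ubn1-depleted library, at 0.52, or without the first Ubn2-depleted one, at 0.58.

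Several genes of antigen presentation were called higher too. Of 35 tested genes of interferon response and antigen presentation 10 were called higher (28.6%) and 1, Oas3, lower (2.86%). Over all genes tested the shares were 4.56% and 4.29%. H2-D1, a classical MHC class I gene, had 47.1 and 56.2 against 115 and 120 CPM (log2 fold change 1.18, adjusted p = 1.04e-07), and H2-K1 had 47.7 and 55.8 against 86.3 and 91.2 (log2 fold change 0.78). Ifitm3, an antiviral membrane protein, had 75.6 and 103 against 198 and 183 CPM (log2 fold change 1.09). Controls had 76.5 and 75.0 CPM of H2-K1, between the depletions, and 58.0 and 51.7 CPM of H2-D1, near the Ubn1-depleted level. MHC class I genes are close paralogs, which leaves the split of reads between them uncertain.

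Imprinted genes, which are read from 1 parental allele, gave 9 calls higher and 2 lower, Ascl2 and Nnat, of 47 tested. H19, the maternally expressed non-coding RNA, lies on chromosome 7 from 142575529 to 142578143. It had 14.6 and 17.2 CPM after Ubn1 depletion, 81.8 and 71.0 after Ubn2 depletion, and 33.7 and 32.3 in controls (log2 fold change 2.26, standard error 0.12, adjusted p = 1.07e-10). Its paternally expressed neighbour Igf2, an insulin-like growth factor, had 1.91 and 0.922 against 11.7 and 9.66 CPM (log2 fold change 2.94, adjusted p = 4.05e-07). H19 thus lay below the controls after Ubn1 depletion and above them after Ubn2 depletion. Meg3, a maternally expressed non-coding RNA on chromosome 12, had 359 and 372 against 613 and 647 CPM (log2 fold change 0.79), and Grb10, an adaptor of growth factor receptors, 9.38 and 9.88 against 23.3 and 18.7 CPM (log2 fold change 1.12).

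Of 31 tested genes of the Nodal and BMP pathways 5 were called lower, namely Lefty1, Lefty2, Bmp4, Bmp7 and Inhbb, and 2 higher, Id3 and Fst. The shares were 16.1% and 6.45%, against 4.29% and 4.56% of all genes tested. The calls of Bmp7 and Inhbb were lost with some libraries left out. Lefty2, a secreted Nodal antagonist that is itself a Nodal target, had 130 and 133.6 CPM after Ubn1 depletion, 52.2 and 41.8 after Ubn2 depletion, and 65.2 and 52.6 in controls (log2 fold change -1.48, adjusted p = 9.49e-09). Lefty1 had 45.6 and 50.8 against 26.0 and 24.6 CPM, with 33.5 and 24.4 in controls (log2 fold change -0.93, adjusted p = 6.2e-06). For both antagonists it was the Ubn1-depleted libraries that stood above the controls.

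Nodal itself had 102 and 102 against 125 and 125 CPM, with a log2 fold change of 0.29. Bmp4, a ligand that supports self-renewal in serum-free culture, had 39.3 and 41.6 against 23.4 and 26.4 CPM (log2 fold change -0.70). Without the second Ubn1-depleted library 3 genes of these pathways were called lower. In the Wnt pathway 7 of 34 tested genes were called lower (20.6%) and 3 higher (8.82%), and DESeq2's Wald test called 4 lower. Sfrp1, a secreted Wnt inhibitor, had 79.6 and 80.0 against 39.7 and 44.2 CPM (log2 fold change -0.93), and Tcf7, a transcription factor of the pathway, 51.0 and 45.2 against 25.4 and 27.7 CPM (log2 fold change -0.86). Fgf15, an FGF of the embryo, had 7.42 and 6.34 against 2.01 and 1.87 CPM (log2 fold change -1.82).

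Among genes that averaged 50 CPM or more, the lowest fold change was that of A2m, a protease inhibitor, with 141 and 167 CPM after Ubn1 depletion against 50.5 and 56.9 (log2 fold change -1.52, standard error 0.10, adjusted p = 5.22e-09). Anxa2, a membrane-binding annexin, had 85.9 and 122 against 35.7 and 39.0 CPM. Bahcc1, Osgep and Arvcf were also among the 10 lowest, with log2 fold changes of -1.17, -1.04 and -1.03. The highest was that of Gja1, the gap junction protein connexin 43, with 45.7 and 43.0 against 132 and 118 CPM (log2 fold change 1.49, adjusted p = 2.77e-09). Eif4g3, a translation initiation factor, had 44.8 and 39.3 against 104 and 101 CPM, and Tmsb4x, which binds actin monomers, 139 and 115 against 270 and 249 CPM.

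Among genes of 1 CPM or more, the lowest was Platr15, a non-coding RNA of ESCs, with 3.14 and 2.69 CPM against 0.640 and 0.152 (log2 fold change -2.83, adjusted p = 0.000216). Controls had 0.389 and 0.573 CPM of it, so here the Ubn1-depleted libraries stood apart. Muc2, a mucin, Klk1, a kallikrein, Chst3, a sulfotransferase, and Col13a1, a transmembrane collagen, followed with log2 fold changes between -2.68 and -2.15. The log2 fold changes of Lpcat2, Mvb12b, Dpp6, Crxos and Gbx1 lay between -2.11 and -1.99, and Gbx1 was not called without the second Ubn2-depleted library, at -1.5.

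Of 36 tested genes of cholesterol synthesis and uptake Insig1, Scd1 and Abcg1 were called lower and the other 33 were not called. That is 8.33% called lower and 0 called higher, against 4.29% and 4.56% of all genes tested. Of the 36, 29 had a negative log2 fold change, and the median was -0.21. edgeR gave 15 of them an adjusted p under 0.05, against 3112 of all 18250 genes tested. Scd1, a fatty acid desaturase, had 68.3 and 75.3 against 37.9 and 38.5 CPM, where controls had 100 and 103 CPM (log2 fold change -0.91, adjusted p = 2.66e-06). On the list of ATF4 targets and amino acid stress 3 of 39 tested genes were called lower (7.69%) and 2 higher (5.13%). Over all genes tested the shares were 4.29% and 4.56%, and on both lists the called genes were few. One of the lower genes was Phgdh, the first enzyme of serine synthesis, which had 122.5 and 142 against 62.6 and 82.0 CPM with 236 and 245 CPM in controls (log2 fold change -0.87). Both genes were below the controls in each depletion and lower after Ubn2 depletion. Of 77 nuclear genes of the respiratory chain 1 was called (1.30%), a smaller share than over all genes tested. The gene was Ndufa4l2, which is induced by low oxygen, with 28.4 and 29.7 against 11.7 and 16.8 CPM.

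Some lists held no called gene although most members lay on one side. Of 37 tested clustered protocadherins, cell-surface proteins of neurons, 36 had a positive log2 fold change and the median was 0.55. edgeR gave 27 of them an unadjusted p under 0.05 and 22 an adjusted p under 0.05, the latter all within 1.5-fold, and DESeq2 called 0. Pcdhga10 had 64.4 and 65.6 CPM after Ubn1 depletion, against 97.4 and 94.9 after Ubn2 depletion, with a log2 fold change of 0.56. Genes of the gamma cluster share exons, so their counts are not independent.

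Of 88 cytosolic ribosomal protein genes 76 had a negative log2 fold change, with a median of -0.23. edgeR gave 45 an unadjusted p under 0.05 and 25 an adjusted p under 0.05, the latter all within 1.5-fold, and DESeq2 called 0. They summed to 78781 and 91309 CPM after Ubn1 depletion and to 70232 and 74222 after Ubn2 depletion, below the 95702 and 93224 CPM of the controls. The second Ubn1-depleted library was again the nearer of its pair to the controls, and without the first 8 genes were called lower. Rpl37 had 883 and 1225 against 723 and 763 CPM.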

How the data were processed

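The authors trimmed reads with Trim Galore, aligned them to GRCm38 with STAR and deposited raw read counts per gene from featureCounts, one table per depletion. Libraries came from an mRNA kit. Tool versions and the strand setting of counting are not given in the sources used here, so reads of overlapping antisense genes cannot be told apart. The Ubn1 and Ubn2 tables were joined by gene symbol, and 0 control values differed between the 3 tables. Of 55418 genes, 55233 matched 1 gene of GENCODE M21.

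Genes were filtered with filterByExpr on the 4 libraries and tested with edgeR 4.0.16 (R 4.3.3, limma 3.58.1) by its quasi-likelihood test, two-sided, with Benjamini-Hochberg adjustment. TMM factors came from all 8 libraries, so that levels in CPM share one scale. The control and Hira-depleted libraries entered no test but the alternatives fitted on all 8 libraries, and control levels are given as a reference. Levels have a floor of 3 counts per library, which is 0.112 to 0.152 CPM in the depleted libraries. Replicates correlated on log2 CPM and differed by more than sampling noise in both groups. Summaries were made in Python 3.11.15 (pandas 2.3.3, numpy 2.4.6), intervals with scipy 1.17.1 and plots with matplotlib 3.10.9.

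The genes named were those of the HIRA list, the 10 highest and 10 lowest called genes at 1 CPM or more and at 50 CPM or more among genes with an established symbol, and of each list members with the smallest adjusted p and defining members. Genes beyond that rule, Pgm1 among them, were named after their values were seen. One gene that the rule selects is not reported here. The members and lists were chosen with earlier results of these data known. Lists are described by counts and medians, without a test.

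The labels number replicates 1 and 2 in each group. Deviations of same-numbered libraries had a correlation of 0.0733 over 18047 genes, and with 2 pairs the numbers were not taken as pairs. Alternatives were DESeq2 1.42.0 (Wald test), its size factors, TMM over the 4 libraries, other count filters, a fit of all 8 libraries, a replicate block, the adjusted p without the fold threshold, and each library left out. On data simulated from these libraries for the same comparison, edgeR called 174 of 199 genes changed by 1.5 on the log2 scale (87.4%) with 3 false calls among 17924 genes, and DESeq2 165 of 200 (82.5%). The simulated spread followed the mean level alone, without gene-specific spread or effects of single libraries, and no other size of change was planted. These figures therefore do not measure recovery of smaller changes or false calls in the real libraries.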

Additional observations from a re-analysis of the deposited data

Results flagged for a closer look

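In the following genes both Ubn1-depleted libraries lay on one side of both control libraries and both Ubn2-depleted libraries on the other, and the difference between the depletions was called by edgeR's quasi-likelihood test. Of the 1616 called genes 163 had this pattern in one direction and 159 in the other. Of all 18250 genes tested, the called ones included, 926 had it in either. The pattern needs depletions that do not overlap, as in 1609 of the called genes and 10640 of all genes tested. The 2 counts are therefore not on an equal footing. Those listed are genes described in the text or chosen after their values were seen, with a control mean of at least 1 CPM. Values are log2 fold changes of Ubn2 over Ubn1 depletion. Below the controls after Ubn1 depletion and above them after Ubn2 depletion were the imprinted genes H19 (2.26), Igf2 (2.94) and Grb10 (1.12), the histone genes Hist3h2a (2.35) and H2afx (0.75), the class I genes H2-K1 (0.78) and H2-Q7 (1.23), Gja1 (1.49), Tmsb4x (1.03), Emb (0.90), Plaur (1.06), Eno3 (0.91), Piwil2 (0.79), Hoxb13 (2.09) and Gata4 (0.79). The call of Gata4 was lost with each library left out. Igf2 lay below the controls by a small margin, with 1.91 and 0.922 CPM after Ubn1 depletion and 1.95 and 2.29 in controls. Gata4 lay above them by a small margin, with 4.16 and 3.95 CPM after Ubn2 depletion and 3.70 and 3.47 in controls. Margins differed between the genes listed, and those of others can be small too.

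Above the controls after Ubn1 depletion and below them after Ubn2 depletion were the signalling genes Lefty2 (-1.48), Bmp4 (-0.70), Sfrp1 (-0.93) and Notch4 (-1.05), the homeobox gene Crxos (-2.05), the antiviral gene Oas3 (-1.52), the metallothionein gene Mt1 (-0.93), Islr2 (-1.42), Crtac1 (-1.18), Arvcf (-1.03), Chst3 (-2.20) and Dpp6 (-2.06). Lefty2 lay below the controls by a small margin, with 52.2 and 41.8 CPM after Ubn2 depletion and 65.2 and 52.6 in controls. Bmp4 and Oas3 lay above the controls by small margins after Ubn1 depletion. Bmp4 had 39.3 and 41.6 CPM there and 37.3 and 37.3 in controls, and Oas3 had 5.87 and 6.30 against 4.72 and 5.73. Each depletion's own difference from the control cells was not tested here.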

How the results depend on the processing

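DESeq2's Wald test called 547 genes higher and 483 lower, and the adjusted p without the fold threshold called 1556 and 1556. Of the DESeq2 calls 953 had the control mean nearer to Ubn1 depletion (92.5%). Counts stayed within 1.5 times of 833 and 783 under the other settings, and leaving out each library gave 613 to 990 genes higher and 553 to 1006 lower. Without the second Ubn1-depleted library 58.8% of calls were higher, against 51.5% with all 4 libraries. The median of clustered histones was 1.45 with at least 10 counts in each library and 1.46 to 1.75 with each library left out. The muscle median was 2.12 in DESeq2, 0.25 with at least 10 counts and 1.54 to 2.56 with each library left out. The median of neuronal genes was -0.07, and 0.086 in DESeq2 and 0.10 without a filter. That of Nodal and BMP genes was -0.11, and 0.013 without the second Ubn1-depleted library. These alternatives change which genes or libraries enter, and beyond that the cause was not tested.

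With a replicate block 1035 genes were called higher and 946 lower, and 845 and 816 with all 8 libraries. The block did not rest on a pairing known from the labels. With 2 libraries per group, small changes in low genes are not resolved.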

Other observations

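Hox genes, which pattern the body axis, were low in all libraries. Of 39 genes 14 were tested, and 5 were called higher after Ubn2 depletion (35.7%) and 1 lower (7.14%), against 4.56% and 4.29% of all genes tested. Low genes can pass the filter through the group where they are higher, so these shares describe the members that passed. With at least 10 counts asked of each library 8 remained, of which 4 were called higher and 0 lower. DESeq2's Wald test called 2. Hoxb9 had 2.32 and 1.65 CPM after Ubn1 depletion, against 6.22 and 4.91 after Ubn2 depletion, with 1.61 and 1.15 in controls. Hoxb13 had 0.592 and 0.538 CPM against 2.15 and 2.68. The lower gene, Hoxc4, had 1.23 and 1.08 against 0.457 and 0.253 CPM (edgeR adjusted p = 0.0318), and its call was lost in DESeq2 and with each library left out.

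In a minority of called genes, 156 of 1616, the control mean lay nearer to Ubn2 depletion, and the following were chosen after their values were seen. Slc11a1, a metal transporter of phagocytic cells, had 57.9 and 68.9 CPM in controls, 14.8 and 19.06 after Ubn1 depletion, against 31.3 and 30.2 after Ubn2 depletion. Islr2, a membrane protein of neurons, had 20.6 and 26.2 CPM in controls, 44.7 and 48.4 after Ubn1 depletion, against 16.2 and 18.7 after Ubn2 depletion. Notch4, a receptor of the Notch family, had 41.3 and 41.6 CPM in controls, 64.4 and 70.4 after Ubn1 depletion, against 32.6 and 32.4 after Ubn2 depletion. For these genes the Ubn1-depleted libraries were the ones farther from the controls.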
